A study of Rattus norvegicus with 12 samples.

Results

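The insulin-like growth factor (IGF) axis was followed in cells labelled as rat nucleus pulposus, the soft centre of a spinal disc, through 10 genes: the protease gene Pappa, its inhibitor genes Stc1 and Stc2, the ligand genes Igf1 and Igf2, the receptor gene Igf1r and the binding protein genes Igfbp3, Igfbp4, Igfbp5 and Igfbp6. They were found by gene symbol, and all 10 stood among the 12899 genes that the 3 deposited tables have in common. The set was chosen by measured values in part: Pappa and Stc1 were selected on their fold changes with knockdown in untreated cells. No gene of the 10 is therefore tested in that comparison, and the values there are a description.

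Primary cells from explants of Wistar rat spines were transduced with lentivirus carrying a control vector (PLKO) or a short hairpin RNA against TonEBP (shTon), the transcription factor encoded by Nfat5 that cells use in high osmolarity. RNA was sequenced from cells left untreated (CTR) or given the inflammatory cytokine TNF-a at 50 ng/mL for 24 h (TNF). The 4 groups, PLKO_CTR, PLKO_TNF, shTon_CTR and shTon_TNF, held 3 libraries each, numbered as sets 1, 2 and 3. All groups share the explant culture and a lentiviral vector, and the sources used here do not give the age or number of the rats or the number of hairpins. What a set stands for (a rat, a culture, a day of work) is not labelled. The p-values here therefore reflect only how far differences between groups varied from set to set in these libraries. That spread may be technical.

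IGF1 and IGF2 are secreted growth factors that act through the receptor tyrosine kinase IGF1R on growth, survival and matrix synthesis, in cartilage and disc cells among others. In tissue fluid most IGF is held by binding proteins (IGFBPs). PAPP-A, the product of Pappa, is a secreted metalloprotease that cuts IGFBP4 and IGFBP5 and so frees the IGF they hold, and the stanniocalcins STC1 and STC2 are secreted proteins that bind PAPP-A and block it.

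Depth ran from 7160042 to 18646798 reads over listed genes, which limits precision for the genes with few reads (Igf1 everywhere, Igf2 and Igfbp5 in set 3). Stc1 also held few reads in set 3 of shTon_CTR (27) and shTon_TNF (10). Igfbp3 held 23 reads in PLKO_CTR set 1, and 13 and 12 in shTon_CTR sets 1 and 3. Sets differed widely: 12 of 14 skeletal muscle markers were listed and summed to 36080 to 83998 normalised reads in set 1, 13970 to 26275 in set 2 and 171 to 247 in set 3. Of 10 nucleus pulposus and notochord markers 4 were listed, summing to 202 to 386, 272 to 503 and 1445 to 2484 normalised reads in sets 1, 2 and 3, while T, Krt18, Krt19, Car12, Shh and Ovos2 were not listed. Of 8 annulus fibrosus and fibroblast markers 7 were listed (19321 to 101547 normalised reads per library). The leukocyte list had 2 of 7 genes (Cd68 and Cd14, summing to 186 to 677), and the endothelial list 1 of 5. These are bulk cultures, so fewer cells of a type and less RNA per cell cannot be told apart.

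Nfat5, the targeted gene, was lower in shTon_CTR (458, 457 and 288 normalised reads in sets 1 to 3) than in PLKO_CTR (685, 1363 and 1818), without overlap, which held in either direction for 9.86% of all genes. Its log2 fold change of -1.61 (SE 0.33) did not pass (adjusted p = 0.0963 in limma). It passed in limma without set 1 (-2.12, 0.0405) and without set 3 (-1.08, 0.00744), where 2.30% and 1.78% of all genes passed. Without set 2 it did not (-1.62, 0.211). DESeq2 called it (-1.60, 5.56e-05), where 3.22% of all genes passed, and edgeR did not (0.0895). The authors' own deposited result was -1.19 with an adjusted p of 4.57e-05, where 406 of 11309 genes with an adjusted p were called. Under TNF-a the log2 fold change of Nfat5 with knockdown was -0.26 (SE 0.44, adjusted p = 0.799 in limma). A lower level of the target was thus not detected there over the 3 sets. The authors' deposited result for that comparison was -0.03 with an adjusted p of 0.987. With TNF-a Nfat5 went against the label in 1 library. The library labelled shTon_TNF set 1 held 1695 normalised reads against 642 in PLKO_TNF set 1. The other shTon_TNF libraries held 500 and 232 against 1092 and 483. Fold changes that rest on the shTon_TNF group are therefore also given without set 1.

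Promoter windows of 250 bases before a gene's start were taken from RefSeq (build GRCr8), and 8 of the 10 genes (all but Pappa and Stc1) matched, with 9 windows. They were searched on both strands for the consensus of the TonE site, the element that TonEBP binds, and for that of the NF-kB site, through which TNF-a acts on many genes. Igf2, with 2 windows, and Igfbp5 each held 1 TonE match, shown in capitals, and Igfbp3 is shown as the 1 gene of the 10 that rose with TNF-a. All 3 windows lie on the minus strand, at chr1:207253981-207254230 (the first window of Igf2), chr9:81914188-81914437 (Igfbp5) and chr14:86277945-86278194 (Igfbp3).
Igf2: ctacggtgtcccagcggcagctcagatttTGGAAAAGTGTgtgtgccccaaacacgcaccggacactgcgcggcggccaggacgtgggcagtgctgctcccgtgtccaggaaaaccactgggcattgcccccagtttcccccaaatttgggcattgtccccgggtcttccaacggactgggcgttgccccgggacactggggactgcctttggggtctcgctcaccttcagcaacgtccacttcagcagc
Igfbp5: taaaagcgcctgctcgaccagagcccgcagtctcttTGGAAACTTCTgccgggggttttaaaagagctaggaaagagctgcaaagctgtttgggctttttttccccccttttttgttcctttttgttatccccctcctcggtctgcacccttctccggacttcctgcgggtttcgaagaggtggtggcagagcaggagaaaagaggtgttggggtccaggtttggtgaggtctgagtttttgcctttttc
Igfbp3: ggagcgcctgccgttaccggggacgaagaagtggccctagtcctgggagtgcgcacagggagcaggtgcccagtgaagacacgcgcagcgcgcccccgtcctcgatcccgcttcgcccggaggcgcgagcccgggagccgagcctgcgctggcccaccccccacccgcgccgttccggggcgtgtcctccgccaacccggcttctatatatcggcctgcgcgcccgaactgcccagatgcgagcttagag
The match in Igf2 begins 221 bases before the start, and that in Igfbp5 begins 214 bases before it. The other 7 windows held no TonE match and none of the 9 held an NF-kB match. Of 33469 rat promoter windows of the same length, 5.17% held a TonE match and 6.33% an NF-kB match. A match is a run of letters and not evidence of binding.

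Levels below are normalised reads, scaled jointly over the 12 libraries. They are not corrected for gene length, so they are compared between libraries and never between genes. Log2 fold changes and their standard errors (SE, n = 3 libraries per group) come from limma on log2(normalised reads + 1) with the set as a term. For genes with few reads the size depends on the added 1 and on the method. For Igf1 with TNF-a in PLKO cells limma gave -2.28, and -3.39 with 0.1 added in place of 1. There edgeR gave -1.69 and DESeq2 -2.02. Adjusted p-values are limma's, Benjamini-Hochberg over all genes tested in the comparison. A gene passed at an adjusted p under 0.05.

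**Figure D1:**
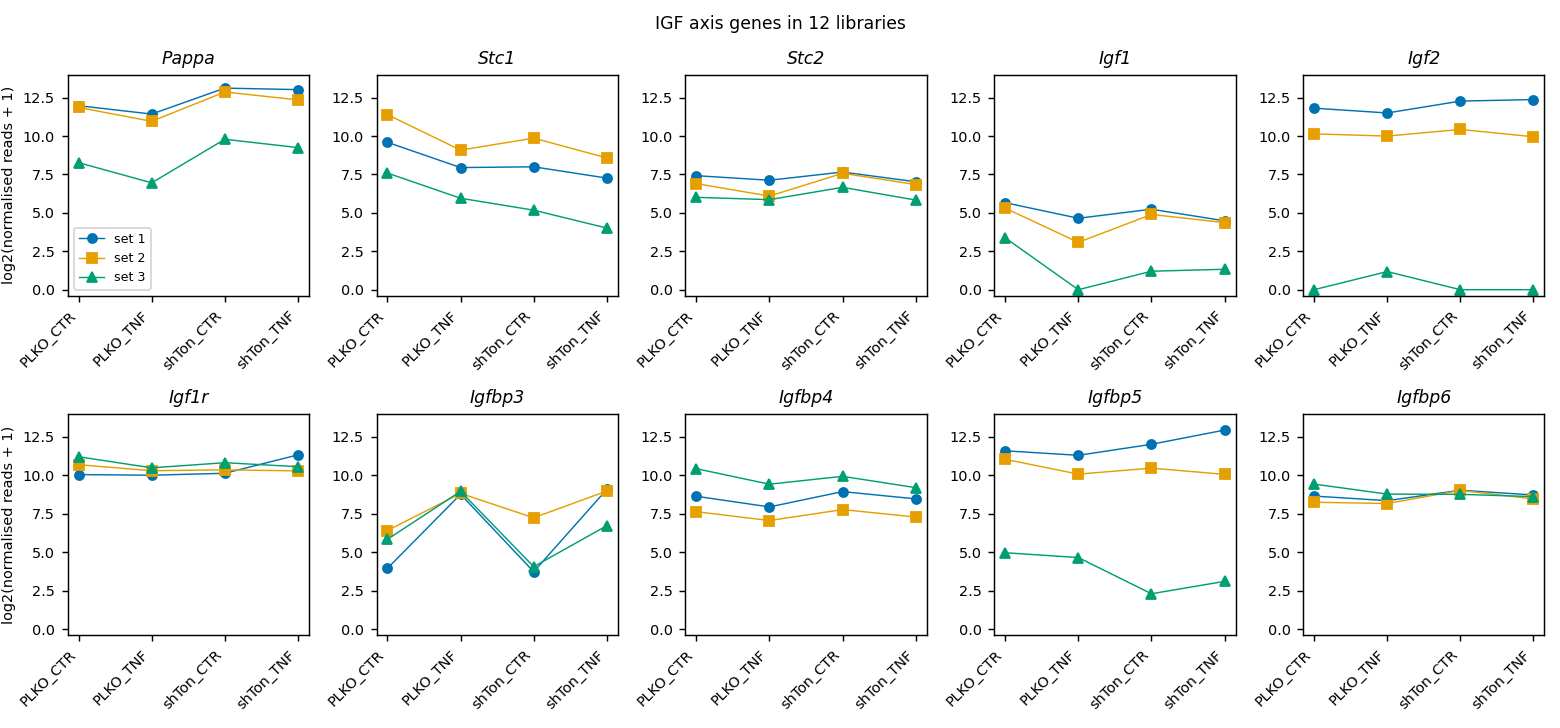
Levels of the 10 genes on a log2(normalised reads + 1) axis in the 4 groups, with 1 line and marker per set. Pappa lies highest in shTon_CTR and lowest in PLKO_TNF in each set, Igfbp3 lies higher with TNF-a in each set, and set 3 lies far below the others for Igf2, Igfbp5 and Pappa.

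Pappa was higher with knockdown and lower with TNF-a in every set. In PLKO_CTR it held 4018, 3709 and 307 normalised reads in sets 1, 2 and 3, and in shTon_CTR 8879, 7459 and 882. The shTon_CTR library lay above the PLKO_CTR library of its own set each time, by log2 ratios of 1.14, 1.01 and 1.52 (21.2% of all genes were higher in 3 of 3 sets), although the groups overlapped because set 3 was low throughout. The log2 fold change was 1.22 (SE 0.14), given without a test. Pappa and Stc1 are 2 of the 14 genes that passed among 12383 in this comparison (0.113%), which is how they came to be chosen.

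The TNF-a-treated libraries are other ones, although results from them were also known when the genes were chosen. Pappa held 2755, 1985 and 123 normalised reads in PLKO_TNF and 8290, 5222 and 607 in shTon_TNF. The knockdown library was again the higher one in 3 of 3 sets, which held for 20.1% of all genes, by log2 ratios of 1.59, 1.40 and 2.29. Pappa rose by a log2 fold change of 1.76 (SE 0.20, adjusted p = 0.0314 in limma), 1 of the 14 genes that rose among 12213 (0.115%) and the only one of the 10 IGF axis genes to pass in this comparison. Without set 1, where Nfat5 goes against the label, the log2 fold change was 1.84 (adjusted p = 0.000231 in limma), and 4.04% of all genes passed. The authors' deposited table lists a log2 fold change of 1.47 with an adjusted p of 1.11e-09, where 3.31% of the genes with an adjusted p were called.

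TNF-a moved Pappa the other way. In PLKO cells it fell by 0.92 on the log2 scale (SE 0.15, adjusted p = 0.0177 in limma), with log2 ratios of -0.54, -0.90 and -1.31 in sets 1, 2 and 3. In shTon cells the log2 fold change was -0.38 (SE 0.14, adjusted p = 0.206 in limma), and without set 1 it was -0.53 (adjusted p = 0.0512). The untreated libraries of both tests are those on which Pappa was chosen, so neither test is independent of the choice. The 4 groups stood in the order shTon_CTR, shTon_TNF, PLKO_CTR, PLKO_TNF in each of the 3 sets. That order includes the comparison on which Pappa was selected, so it is a description. Not all neighbouring groups in that order passed a test. The test of shTon_TNF against shTon_CTR did not pass, although Pappa was lower with TNF-a in 3 of 3 sets (22.6% of all genes). The groups shTon_TNF and PLKO_CTR, which differ in both factors, were not compared.

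Stc1, which encodes an inhibitor of PAPP-A and is a paracrine hormone in its own right, was lower with knockdown and lower with TNF-a. It held 770, 2680 and 191 normalised reads in PLKO_CTR and 254, 930 and 35.1 in shTon_CTR. Within sets the log2 ratios were -1.59, -1.53 and -2.41 (19.7% of all genes were lower in 3 of 3 sets), and the log2 fold change was -1.85 (SE 0.19), again with no test. In TNF-a-treated cells the levels were 246, 541 and 60.9 in PLKO_TNF and 153, 381 and 15.1 in shTon_TNF. That is lower in 3 of 3 sets, as were 20.1% of all genes, with a log2 fold change of -1.04 (SE 0.30) that did not pass (adjusted p = 0.167 in limma). Without set 1, where 4.04% of all genes passed, it was -1.22 and passed (adjusted p = 0.0474). The authors' deposited table lists -0.64 with an adjusted p of 0.148.

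With TNF-a, Stc1 fell by 1.86 on the log2 scale in PLKO cells (SE 0.16, adjusted p = 0.00285 in limma). The PLKO_CTR libraries of that comparison are also those against which Stc1 was chosen, so the fall is not independent of the choice. The shTon_CTR libraries were used in the choice too. In shTon cells Stc1 fell by 1.06 (SE 0.18, adjusted p = 0.0304 in limma), lower in 3 of 3 sets, as were 22.6% of all genes. Without set 1 the log2 fold change was -1.22 (adjusted p = 0.000496), but without set 2 it was -0.95 (0.197) and without set 3 -1.01 (0.0502). PLKO_CTR was the highest group and shTon_TNF the lowest in each set, and the 2 groups between them changed places in set 3.

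Stc2, the second stanniocalcin, lay highest in shTon_CTR and next highest in PLKO_CTR in each set. Its levels in sets 1, 2 and 3 were 170, 119 and 63.5 normalised reads in PLKO_CTR, 138, 67.2 and 57.1 in PLKO_TNF, 201, 190 and 100.2 in shTon_CTR and 129, 114 and 56.0 in shTon_TNF. In untreated cells the knockdown library was thus above the control library in 3 of 3 sets, with a log2 fold change of 0.52 (SE 0.18), a direction that 21.2% of all genes had in 3 of 3 sets. With TNF-a it was lower in every set in both cell types, a direction that 26.6% of all genes had in PLKO cells and 22.6% in shTon cells. It passed in neither: -0.42 (SE 0.20, adjusted p = 0.209 in limma) in PLKO cells and -0.73 (SE 0.17, adjusted p = 0.0701) in shTon cells. Without set 1, where 9.05% of all genes passed, the value in shTon cells was -0.78 (adjusted p = 0.0379). Knockdown under TNF-a left it at 0.21 (SE 0.27, adjusted p = 0.720 in limma), with 1 set higher and 2 lower, and at 0.36 (0.665) without set 1. So in untreated cells the values of the stanniocalcin genes lay on opposite sides of 0.

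**Figure D2:**
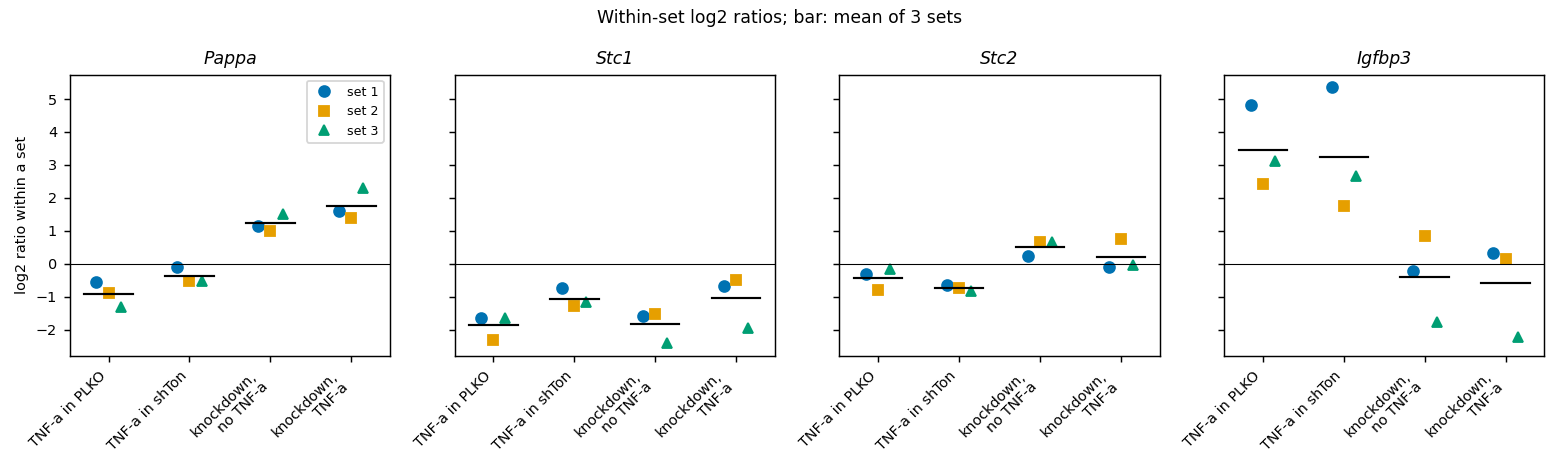
Log2 ratio within each set (y axis) for Pappa, Stc1, Stc2 and Igfbp3 in 4 comparisons (x axis); points are sets and the bar is their mean. Knockdown ratios of Pappa lie above 0 and those of Stc1 below 0 in all 3 sets with and without TNF-a, whereas Igfbp3 lies above 0 with TNF-a and on both sides of 0 with knockdown.

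Markers of other cells were set beside these results. In untreated cells 11 of 12 muscle markers had a log2 fold change above 0 with knockdown (median 0.45, against 0.01 over all genes). Under TNF-a 10 of 12 did so (median 0.33, against 0.02 over all genes), and none passed either time. Acta1 was below 0 both times (-0.35 and -0.55). In untreated cells its log2 ratios were 0.64, 0.78 and -2.44 in sets 1, 2 and 3. The muscle markers summed to 185 to 44681 normalised reads in PLKO_CTR, 171 to 36080 in PLKO_TNF, 246 to 83998 in shTon_CTR and 247 to 72569 in shTon_TNF. Pappa's knockdown ratios were largest in set 3 (1.52 and 2.29), the set in which the muscle markers summed to at most 247. Of 6 tested genes of the fibroblast list 3 had values above 0 and 3 below with knockdown under TNF-a, and Pdgfra (-0.66, adjusted p = 0.415 in limma) was among the latter. The 1 that passed was Col3a1, a fibrillar collagen gene (1.53, SE 0.21, adjusted p = 0.0389, and 1.57 without set 1, 0.00148), and no marker of the other lists did. Pdgfra was named after its value was seen. The part of these cells in Pappa's rise was not tested.

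Among the ligand genes, Igf1 was low everywhere and Igf2 was divided by set. Igf1 held 49.6, 38.5 and 9.36 normalised reads in PLKO_CTR, which is 79, 51 and 9 reads. In PLKO_TNF it held 24.1 and 7.47 in sets 1 and 2 and no read in set 3, where 3 reads would be 3.80 normalised reads. It was lower in 3 of 3 sets, as were 26.6% of all genes, and fell by 2.28 on the log2 scale (SE 0.52, adjusted p = 0.0417 in limma). With 1 library at 0 this size depends on the pseudocount, and the call was lost with a pseudocount of 0.1 (adjusted p = 0.0973), with edgeR (0.0665) and without set 2 (0.0967). The authors' deposited table lists -0.92 with no adjusted p, where DESeq2 run here gave -2.02.

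Under knockdown Igf1 held 36.7, 28.8 and 1.30 normalised reads untreated and 21.3, 19.6 and 1.51 with TNF-a. The log2 fold change with TNF-a in shTon cells was -0.39 (SE 0.38, adjusted p = 0.632 in limma), and -0.20 (0.913) without set 1. Knockdown gave -1.01 (SE 0.44) in untreated cells, where no test was made, and 0.81 (SE 0.53, adjusted p = 0.476) under TNF-a. Without set 1 that last comparison gave no value, because the mean fell under 10 normalised reads.

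Igf2 held 3594 and 1128 normalised reads in PLKO_CTR sets 1 and 2, 2894 and 1019 in PLKO_TNF, 4943 and 1377 in shTon_CTR and 5300 and 989 in shTon_TNF. In set 3 the 4 libraries held 0, 1, 0 and 0 reads in that order, under the 3.12 to 4.54 normalised reads that 3 reads would be. So the difference between sets spanned the whole range of the gene, while the groups ran from 2894 to 5300 within set 1 and from 989 to 1377 within set 2. With TNF-a in PLKO cells the log2 ratio was -0.31 in set 1 and -0.15 in set 2, and the fitted 0.28 (SE 0.31, adjusted p = 0.581 in limma) takes its sign from the single read in set 3. No other comparison passed for Igf2 either: 0.24 (SE 0.17) for knockdown in untreated cells, not tested, -0.10 (SE 0.35, adjusted p = 0.910) under TNF-a and -0.13 (SE 0.18, adjusted p = 0.751) for TNF-a in shTon cells. Without set 1 the latter were -0.59 (0.523) and -0.24 (0.776).

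**Figure D3:**
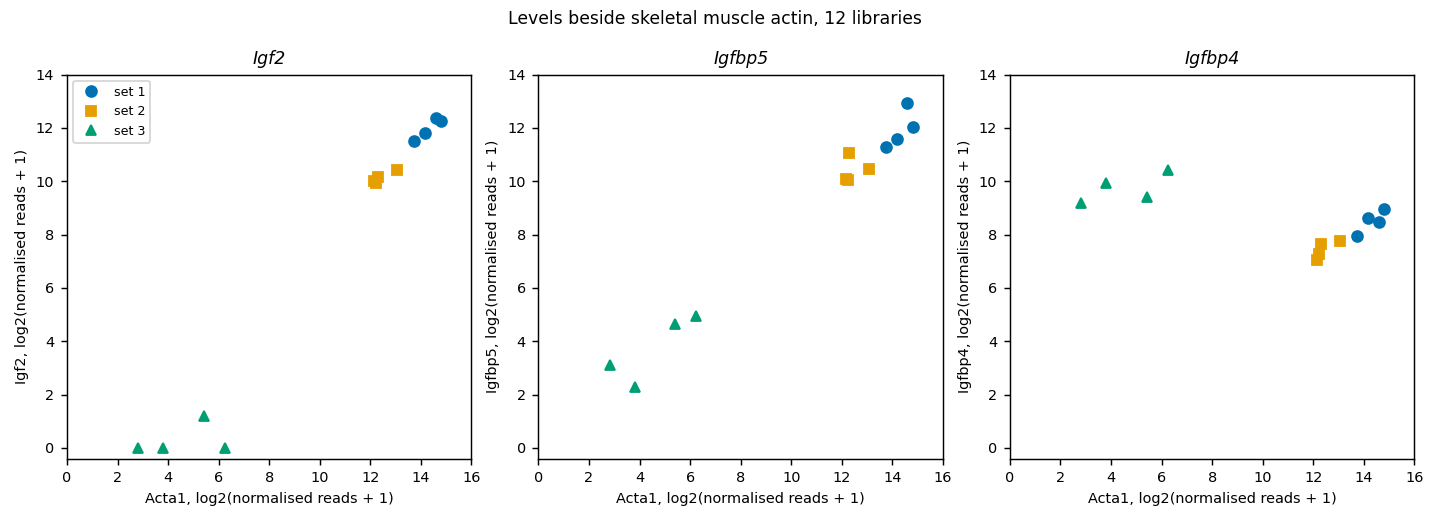
Levels of Igf2, Igfbp5 and Igfbp4 (y axis) against Acta1, skeletal muscle actin (x axis), both as log2(normalised reads + 1), with 1 point per library and 1 colour per set. Igf2 and Igfbp5 are high where Acta1 is high (sets 1 and 2) and low in set 3, and Igfbp4 is highest in the 4 libraries of set 3.

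Igf2 is a growth factor of embryonic tissue and of differentiating muscle, and it followed the sets in the same way as the muscle markers. The mean level of Acta1 per set (n = 4 libraries each) was 21370.0, 5746 and 34.0 normalised reads. Since the sets form separate clusters, no correlation over the 12 libraries is given. What part of the set difference in Igf2 belongs to muscle cells was not tested.

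Igf1r, which encodes the receptor, was expressed in every library and passed no test over the 3 sets. Its levels were 1057, 1652 and 2366 normalised reads in PLKO_CTR, 1027, 1258 and 1434 in PLKO_TNF, 1121, 1309 and 1806 in shTon_CTR and 2571, 1250 and 1510 in shTon_TNF. The library labelled shTon_TNF set 1, the one with high Nfat5, was the highest of the 12. With TNF-a the log2 fold change was -0.39 in PLKO cells (SE 0.14, adjusted p = 0.121 in limma), lower in 3 of 3 sets, as were 26.6% of all genes. With sets 1, 2 and 3 left out in turn it was -0.56 (0.0463, where 11.5% of all genes passed), -0.38 (0.295) and -0.22 (0.453). In shTon cells it was 0.29 (SE 0.27, adjusted p = 0.606), and -0.16 (0.652) without set 1. Knockdown gave -0.22 (SE 0.13, not tested) in untreated cells and 0.47 (SE 0.26, adjusted p = 0.408) under TNF-a, which was 0.032 (0.967) without set 1.

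The binding protein genes split by their response to TNF-a, with Igfbp3 up and Igfbp4 down. Igfbp3, whose product is the main IGF carrier in serum, held 14.4, 83.9 and 56.2 normalised reads in PLKO_CTR and 434, 453 and 496 in PLKO_TNF. It was the only one of the 10 genes whose PLKO groups did not overlap, which held for 11.6% of all genes. Igfbp3 rose by 3.46 on the log2 scale (SE 0.41, adjusted p = 0.00767 in limma), higher in 3 of 3 sets, as were 25.6% of all genes. The authors' deposited table lists 1.45 with an adjusted p of 0.000166, while DESeq2 run here on the recovered reads gave 3.46 (adjusted p = 1.35e-05). The deposited size may be on another scale, so it is not compared with that of limma.

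In shTon cells Igfbp3 went from 12.2, 150 and 15.6 normalised reads to 541, 503 and 104. The TNF-a library was again higher in 3 of 3 sets (19.9% of all genes), by log2 ratios of 5.35, 1.74 and 2.67, although the groups overlapped. Igfbp3 rose there by 3.25 (SE 0.60, adjusted p = 0.0378 in limma), and by 2.20 without set 1 (1.79e-07). The call was lost without set 3 (adjusted p = 0.0766), with a pseudocount of 0.1 (0.0537) and with edgeR (0.0505). Knockdown itself moved Igfbp3 in no constant direction: -0.40 (SE 0.47, not tested) in untreated cells and -0.59 (SE 0.44, adjusted p = 0.540) under TNF-a, with set 3 down and set 2 up both times. Without set 1 the value under TNF-a was -1.04 (0.119).

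Igfbp4, whose product is the classic substrate of PAPP-A and mostly restrains IGF, fell with TNF-a in PLKO cells. It held 397, 197 and 1378 normalised reads in PLKO_CTR and 245, 132 and 685 in PLKO_TNF. The fall was 0.76 on the log2 scale (SE 0.13, adjusted p = 0.0200 in limma), with log2 ratios between -1.01 and -0.57. In shTon cells it went from 490, 217 and 977 to 353, 155 and 586, lower in 3 of 3 sets, as were 22.6% of all genes. That log2 fold change of -0.56 (SE 0.14) did not pass (adjusted p = 0.0817). Without set 1, where 9.05% of all genes passed, it was -0.61 and passed (0.0338). Knockdown gave -0.02 (SE 0.17, not tested) in untreated cells and 0.18 (SE 0.20, adjusted p = 0.689) under TNF-a, which was 0.0015 (0.999) without set 1.

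Igfbp5, whose product binds extracellular matrix and is also cut by PAPP-A, held 3090, 2108 and 30.2 normalised reads in PLKO_CTR and 2522, 1079 and 24.1 in PLKO_TNF. The levels in shTon_CTR were 4145, 1415 and 3.90, and those in shTon_TNF 7874, 1068 and 7.57. Like Igf2 it was high in the sets with muscle transcripts and low in set 3, where the shTon libraries held 3 and 5 reads. TNF-a gave -0.52 (SE 0.16, adjusted p = 0.0801 in limma) in PLKO cells, lower in 3 of 3 sets, and passed without set 3 (-0.63, 0.0359) and with DESeq2 (-0.58, 0.0475). The value was -0.64 (0.107) without set 1 and -0.30 (0.434) without set 2, and the fit of all 12 libraries gave an adjusted p of 0.665. In shTon cells the value was 0.44 (SE 0.26, adjusted p = 0.415), and 0.20 (0.749) without set 1. Knockdown ratios ran from 0.42 in set 1 to -2.67 in set 3 in untreated cells, and the log2 fold changes were -0.95 (SE 0.49, not tested) there and 0.03 (SE 0.49, adjusted p = 0.985) under TNF-a. Without set 1 the value under TNF-a was -0.78 (0.233).

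Igfbp6, whose product prefers IGF2, held 401, 303 and 689 normalised reads in PLKO_CTR, 325, 286 and 437 in PLKO_TNF, 522, 517 and 433 in shTon_CTR and 420, 352 and 391 in shTon_TNF. The shTon_TNF libraries all lay below the shTon_CTR libraries, which held in either direction for 10.5% of all genes. No test passed for it: -0.35 (SE 0.14, adjusted p = 0.156 in limma) with TNF-a in PLKO cells, -0.34 (SE 0.14, 0.261) in shTon cells and 0.17 (SE 0.19, 0.675) for knockdown under TNF-a. Without set 1 the last 2 were -0.35 (0.279) and 0.069 (0.928). In untreated cells knockdown gave 0.16 (SE 0.25, not tested).

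**Figure D4:**
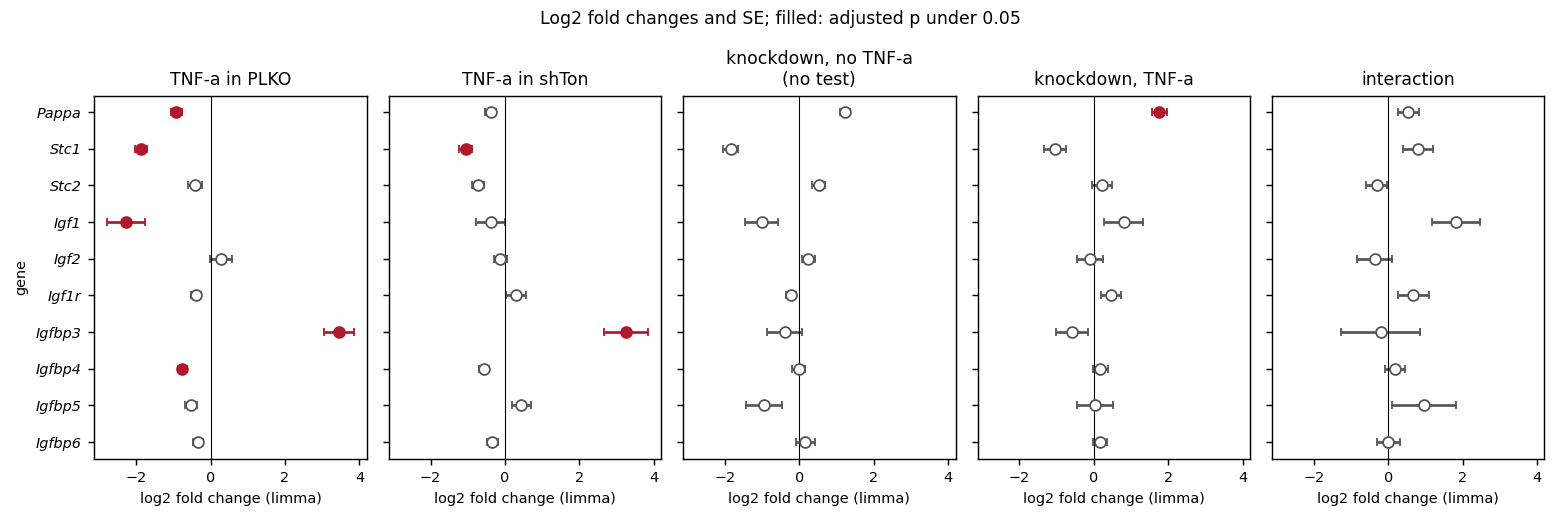
Log2 fold change from limma (x axis, point) and its SE (bar) for the 10 genes in 5 comparisons; filled points passed at an adjusted p under 0.05, and knockdown without TNF-a was not tested. TNF-a in PLKO cells has 5 filled points, TNF-a in shTon cells 2, knockdown with TNF-a 1 and the interaction none.

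Counted over the 10 genes, TNF-a in PLKO cells raised Igfbp3 and lowered Stc1, Pappa, Igfbp4 and Igf1, so that 5 of 10 passed where 9.62% of 12373 genes did (4.97% higher and 4.65% lower). In that comparison 8 of the 10 were lower in 3 of 3 sets, against 26.6% of all genes, and the median log2 fold change was -0.47 against -0.01 over all genes. Without Pappa and Stc1, the 2 genes selected on measured values, 3 of 8 passed, 6 of 8 were lower in 3 of 3 sets and the median was -0.40. These 8 were also chosen with earlier results of these data known, so their counts are a description. The authors' deposited table calls 4 of the 10 (Stc1, Pappa, Igfbp3 and Igfbp4), where it calls 11.8% of the genes with an adjusted p. In shTon cells 2 of 10 passed, Igfbp3 upward and Stc1 downward, against 3.28% of 12339 genes (1.95% higher and 1.33% lower), and 4 passed without set 1, where 9.05% of genes did. Without the 2 selected genes 1 of 8 passed. Under TNF-a, knockdown moved 1 of 10 past the threshold against 0.254% of 12213 genes, and 0 of 8 without the selected genes. The comparisons with a group in common are not independent of each other.

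Some markers of the disc and of other cells fell with TNF-a in PLKO cells, where 4.65% of all genes fell. Of 4 nucleus pulposus markers 2 fell, Pax1 (-1.45, SE 0.26, adjusted p = 0.0232 in limma) and Krt8 (-1.10, SE 0.20, 0.0230). The fibroblast list had 2 of 6 tested genes down, Col3a1 (-1.70, SE 0.22, 0.00934) and the tendon transcription factor gene Scx (-0.76, SE 0.12, 0.0157). Of 12 muscle markers the myogenic factor gene Myod1 fell (-1.49, SE 0.20, 0.0112), a share near that of all genes. In shTon cells, where 1.33% of all genes fell, Myod1 (-1.21, SE 0.22, 0.0370) and Krt8 (-0.83, SE 0.15, 0.0316) were the markers that passed. Without set 1 these were -1.38 (0.0196) and -0.73 (0.00676), and both calls were lost without set 2 (0.152 and 0.0932). The part of these in the falls of Pappa, Stc1, Igfbp4 and Igf1 was not tested.

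Whether knockdown changed the response to TNF-a was tested as an interaction over the 12 libraries. None of 12310 genes passed (0%) in limma, with 219 at an unadjusted p under 0.05, and neither edgeR (246 unadjusted) nor DESeq2 (275 unadjusted) called any. For Igf1 the interaction was 1.82 (SE 0.65), for Stc1 0.80 (SE 0.40) and for Pappa 0.54 (SE 0.28), positive values meaning a smaller fall with TNF-a in shTon cells. For Igfbp3 it was -0.20 (SE 1.06), so a wide range of differences could not be detected. Without set 1 these values were 2.60, 0.75, 0.58 and -0.57. The interaction contains knockdown in untreated cells, on which Pappa and Stc1 were selected, so their values there are not independent of the choice. In set 3 Igf1 held 9 reads in PLKO_CTR, 0 in PLKO_TNF, 1 in shTon_CTR and 1 in shTon_TNF. All 10 genes had an adjusted p of 0.999 in limma. The calls made in PLKO cells and missed in shTon cells are therefore not shown to differ between the cell types.

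The wider pathway was described by 3 further lists. Of 28 genes of IGF receptor signalling 27 were tested, and with TNF-a in PLKO cells 0 rose and 5 fell (median of the list -0.08), where 4.97% of all genes rose and 4.65% fell. Irs2, an adaptor between the receptor and PI3 kinase, fell by 0.94 on the log2 scale (SE 0.21, adjusted p = 0.0387 in limma). The other falls were in Pik3r1, a regulatory subunit of PI3 kinase (-0.73, SE 0.14, 0.0270), the receptor-binding adaptor genes Grb14 (-0.63, SE 0.15, 0.0479) and Grb10 (-0.42, SE 0.10, 0.0471), and Foxo3, a transcription factor gene held in check by AKT (-0.56, SE 0.13, 0.0464). Of the 5, Grb14, Grb10 and Foxo3 lost the call in the fit of all 12 libraries (0.171, 0.0800 and 0.139), and each of the 5 lost it without set 2, with adjusted p of 0.0699 to 0.166. Without set 1 Grb14 and Grb10 lost it (0.0937 and 0.0863), and without set 3 Irs2, Grb10 and Foxo3 did (0.0915, 0.171 and 0.130). With edgeR it was lost for Grb14 and Grb10 (0.0508 and 0.0555), and with a pseudocount of 0.1 for Grb14, Grb10 and Foxo3 (0.0578, 0.0524 and 0.0548).

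In shTon cells 1 of the 27 passed, Pik3r1 (-0.66, SE 0.12, adjusted p = 0.0407 in limma), which is near the 3.28% of all genes. It was -0.58 (0.0391) without set 1, and the call was lost without set 2 (0.225). Of 17 other carriers, receptors and proteases 12 were tested. Adam12, a metalloprotease that can cut IGFBP3 and IGFBP5, was the 1 that rose with TNF-a in PLKO cells (0.47, SE 0.10, 0.0308), near the 9.62% of all genes that passed. That call was lost in the fit of all 12 libraries (0.254), without set 2 (0.148) and without set 3 (0.0649). None of the 12 fell, although 11 had values below 0 (median -0.28), among them Igfbp2 (-0.77, adjusted p = 0.155), the IGF2 scavenger receptor gene Igf2r (-0.68, 0.0823) and Pappa2, a relative of Pappa (-0.62, 0.301). None of the 5 tested genes of 9 for IGF2 mRNA binding and imprinted growth control passed. Neither knockdown, with or without TNF-a, nor the interaction moved a gene of these 3 lists past the threshold. Pik3r1, Grb14, Grb10, Foxo3, Adam12, Igfbp2, Igf2r and Pappa2 were named after their values were seen.

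**Figure D5:**
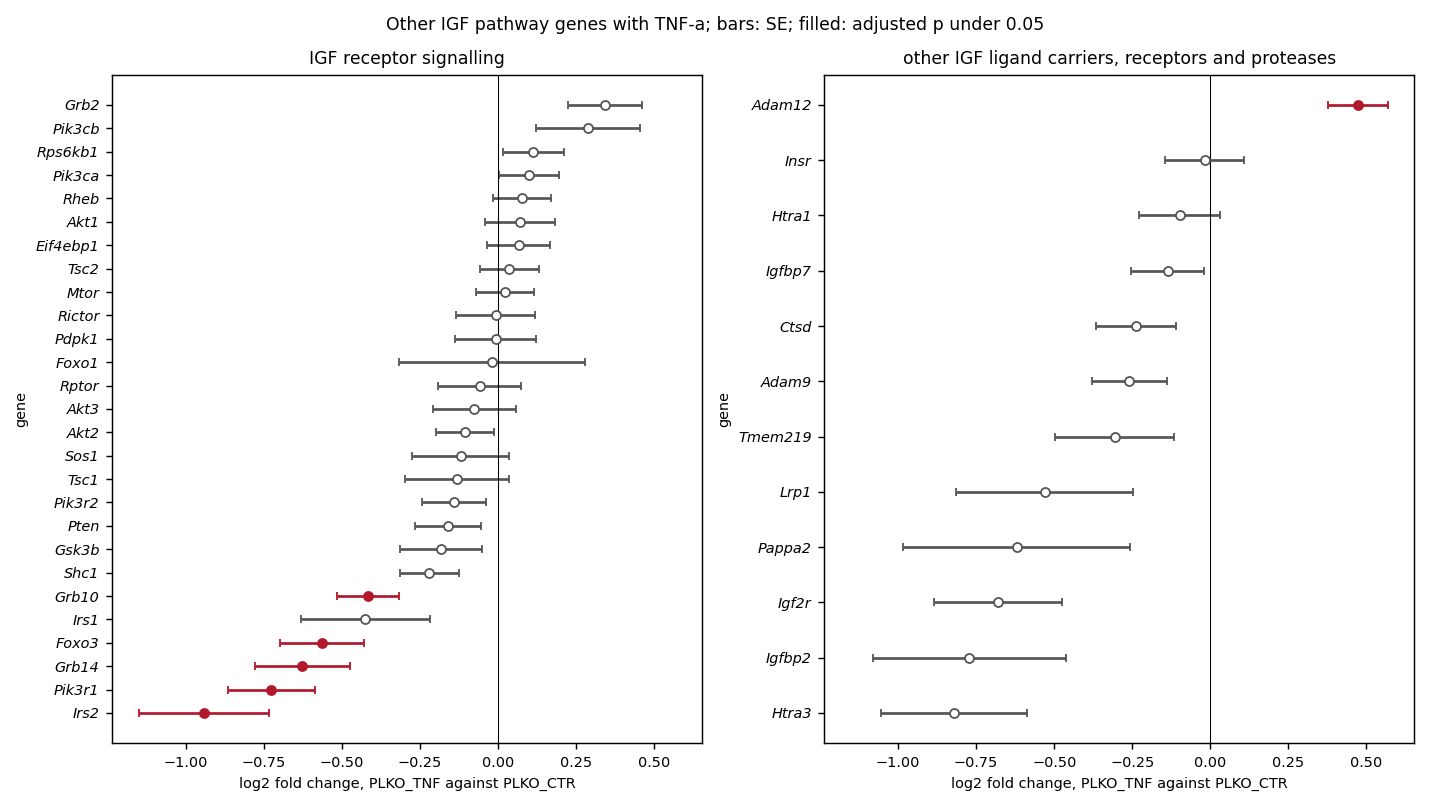
Log2 fold change with TNF-a in PLKO cells from limma (x axis, point) and its SE (bar) for 27 genes of IGF receptor signalling (left) and 12 other carriers, receptors and proteases (right). Filled points passed at an adjusted p under 0.05: 5 on the left, all below 0, and Adam12 on the right, above 0.

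The genes most like Pappa and Stc1 over the 12 libraries were found by Pearson's r of log2(normalised reads + 1) after subtraction of the set mean, among 10445 genes. These are descriptions of 12 libraries that share 4 groups and 3 sets. For Pappa they were Ppm1l (0.99), Il6r, the interleukin-6 receptor gene (0.98), Lrit1 (0.98), the copper transporter gene Atp7a (0.98) and the heparan sulphate polymerase gene Ext1 (0.98). For Stc1 they were the glycogenin gene Gyg1 (0.97), Gnptg (0.96), Slc43a3 (0.96), the guanine deaminase gene Gda (0.96) and LOC100910454 (0.96). Pappa and Stc1 themselves had an r of -0.33. Among the IGF axis genes compared, the highest r with Pappa was that of Stc2 (0.64, rank 1423 among the 10445 genes). The highest with Stc1 was that of Igfbp4 (0.62, rank 1330). Many genes outside the axis were thus closer to each. Igfbp3 had the lowest r with both, -0.47 with Pappa and -0.41 with Stc1.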

How the data were processed

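RNA sequencing of 12 libraries (4 groups of 3) was analysed from 3 tables that the authors deposited, each with 2 groups. Per the file headers, each library's column holds a gene's signal after normalisation. The authors also deposited their own log2 fold change and adjusted p-value for each gene. Those fold changes need not be on the same scale as the ones computed here. Novoalign 2.08.01, DESeq2 (no version) and the build rn5 are named in the submitters' processing notes. The counter and annotation: not given in the sources used here. Whole reads were recovered from the steps of the values for 100% of them (within 0.001 read), and libraries in 2 tables held equal reads. Reads of the 12899 common genes were scaled jointly with DESeq2 size factors for the levels, for TNF-a in shTon cells and for the interaction. For the remaining pairs the deposited values were used.

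The main test was limma 3.58.1 (R 4.3.3) with a mean-variance trend on log2(value + 1), genes with a mean of at least 10, and the set as a term, because an earlier analysis of these files had found that fits without the set stayed far from the deposited p-values (not recomputed here). The sets pair the libraries: after subtraction of group means, r was 0.609 to 0.889 in the 18 pairs within a set and -0.741 to 0.18 in the 36 across sets. The fits were tested on simulated data. Alternatives were other pseudocounts (0.1, 5), filters (none, 50), TMM scaling, no trend, no set term, edgeR 4.0.16, DESeq2 1.42.0 and each set left out. The 10 genes, the lists and the rules for naming genes were chosen with earlier results of these data known. The text names the 10 genes, other list genes past the threshold (at most 6 per comparison, by size), Nfat5, Acta1 and the 5 genes most like Pappa and Stc1 (mean of at least 50). Promoters are from RefSeq, GRCr8.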

Additional observations from a re-analysis of the deposited data

How the results depend on the processing

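Without the replicate block (the set as a term) no gene of the 10 passed in any comparison: the counts went from 5 to 0 for TNF-a in PLKO cells, from 2 to 0 for TNF-a in shTon cells and from 1 to 0 for knockdown with TNF-a, where limma called 0, 6 and 0 genes in all and 793, 632 and 770 had an unadjusted p under 0.05. Without the mean-variance trend the same 3 counts were 0, where limma called 55, 143 and 0 genes in all. For TNF-a in shTon cells 1 gene of the 10 passed with all 12 libraries in the fit, with a pseudocount of 0.1 and with edgeR. In these settings 2.71%, 2.71% and 3.35% of all genes passed. The cause was not tested. With each set left out the counts ranged from 4 to 6, from 0 to 4 and from 1 to 2. The share of all genes that passed then ranged from 4.40% to 11.5%, from 2.57% to 9.05% and from 0.262% to 4.04%. The interaction stayed at 0 in every setting. Knockdown without TNF-a kept its direction for Pappa (1.07 to 1.33 with a set left out) and Stc1 (-2.01 to -1.57). There, untested, Igfbp3 ranged from -1.01 to 0.30, Igfbp4 from -0.18 to 0.21 and Igfbp6 from -0.15 to 0.57 with a set left out. In the tested comparisons signs turned in values that had not passed. Igf2 went to -0.029 (pseudocount 5), -0.22 (edgeR), -0.22 (DESeq2) and -0.23 (without set 3) for TNF-a in PLKO cells, to 0.18, 0.41, 0.39 and 0.42 in the same settings for knockdown with TNF-a, and to 0.060 (edgeR), 0.036 (DESeq2) and 0.041 (without set 3) for the interaction. It rests on at most 1 read in set 3. For knockdown with TNF-a, Igfbp5 went to -0.0057 with a pseudocount of 0.1. With each set left out, values that turned ranged from -0.058 to 0.36 (Stc2), from -0.59 to 0.42 (Igf2), from -1.04 to 0.24 (Igfbp3), from -0.78 to 0.82 (Igfbp5) and from -1.09 to 0.18 (Nfat5) for knockdown with TNF-a. They ranged from -0.24 to 0.050 (Igf2), from -0.16 to 0.57 (Igf1r) and from -0.091 to 1.01 (Nfat5) for TNF-a in shTon cells, from -0.23 to 0.58 (Igf2) for TNF-a in PLKO cells, and from -0.76 to 0.041 (Igf2), from -0.57 to 0.043 (Igfbp3) and from -0.24 to 0.25 (Igfbp6) for the interaction. The cause of these was not tested.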
